A study of Mus musculus with 186 samples.

Results

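The basement membrane genes and integrins described here are 39 genes given as a list of names, with no threshold on a measured value: laminin, collagen IV and linker chains, the parts of hemidesmosomes, dystroglycan and integrin chains. All 39 were found by symbol among the 25275 genes with a symbol in the per-cell count files, and 38 passed the filter on low genes (1 CPM or more in 3 cells or more, where CPM is the reads of a gene per 1000000 reads of its cell), which 14773 genes passed. Itga7 did not pass. Chains that these genes pair with but that were not on the list (Itgb1, Itga6, Itga2 and Itgb3) are given only as partners.

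The cells were epithelial cells of the adult mammary gland of untreated female FVB/NJ mice, sorted fresh and placed on the Fluidigm C1, a chip that holds a cell per site and makes cDNA from its polyadenylated RNA. Of these, 96 were sorted as basal (Lin- CD29hi CD24+) and 90 as luminal (Lin- CD29lo CD24+), where Lin- stands for cells without the blood and endothelial surface proteins Ter119, CD31 and CD45. The PCR plates were A and B for the basal and B and C for the luminal cells, so plate B held both. No label ties a cell to a mouse, so each population counted as 1 sample without replicates, and no test was made between them.

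A basement membrane is a thin sheet of matrix under an epithelium. Laminins, each an assembly of an alpha, a beta and a gamma chain made in the same cell, polymerise on the cell surface through integrins and dystroglycan, and collagen IV forms a covalently joined network that nidogens and the heparan sulfate proteoglycans perlecan and agrin link to the laminin sheet. In the mammary gland the basal (myoepithelial) cells lie against this sheet and the luminal cells line the lumen, and signals through laminin and integrins are known to be needed for polarity and milk gene expression.

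The thresholds of the study (50000 reads and 1000 genes in basal cells, 100000 reads and 1500 genes for luminal ones) left 72 basal cells (50 on plate A, 22 on plate B) and 76 luminal cells (24 on plate B, 52 on plate C), with 69933 to 3226961 reads per cell. The labels held at the level of the populations: of 10 basal markers a median of 9 reached 10 CPM in a basal cell and 0 in a luminal cell, and of 10 luminal markers a median of 9 reached it in a luminal cell and 2 in a basal cell. Single wells stood apart. At least 4 markers of an endothelial, fibroblast or pericyte list reached 10 CPM in 10 basal wells (endothelial in 7, fibroblast in 4, pericyte in 2) and in 9 luminal wells (4, 8 and 3), with no well reaching this for the immune list. The summed CPM of the 20 fibroblast markers ran from 0 to 32283.7 over basal and from 0 to 40871.5 over luminal cells, and that of the 20 endothelial markers from 0 to 12500.4 and from 0 to 5089.22. Luminal cell 54 had 18 of 20 fibroblast markers and 2 of 10 luminal markers. Luminal cell 63 had 9 of 10 basal markers and 8 luminal ones, and basal cell 90 had no basal and 7 luminal markers. Other cells were mixed too: at least 4 luminal markers reached 10 CPM in 15 of 72 basal cells, and at least 4 basal markers in 3 of 76 luminal cells. Basal cells 13 and 20 had 8 luminal markers each, beside 8 and 10 basal ones. All these wells stayed in the main values. Those with at least 4 markers of an endothelial, fibroblast or pericyte list are called marker wells below, and values without the marker wells are given where they mattered. Basal cells of plate B also stood apart, with a median of 1572 genes at 50000 reads against 2906 on plate A, 3218 in luminal cells of plate B and 3437.5 on plate C. How far this took part in the plate differences below was not tested.

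The first question was which of these chains each population expressed. As a group the members were more abundant in basal cells. They took a median of 0.67% of the reads of a basal cell and 0.27% of those of a luminal cell. On the log2 ratio of luminal over basal, taken on CPM of summed counts with 1 CPM added to each population, 20 of 38 members were higher in basal cells by at least 2-fold, where 18.3% of all 14773 genes were, and 5 were higher in luminal cells by that much, where 28.4% of all genes were. The median ratio was -1.56 for the members and 0.18 for all genes. Requiring the same on plate B alone left 13 members on the basal side (10.2% of all genes) and 2 on the luminal side (21.5%), and the median ratio on plate B alone was -0.54 for the members and 0.48 for all genes. Without the 19 marker wells, 20 of the 37 members that then passed the filter lay on the basal side by 2-fold (19.4% of all genes) and 3 on the luminal side (29.5%), with a median of -2.01 against 0.18.

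The 13 members higher in basal cells over all plates and on plate B were Col4a1, Col4a2, Col4a5, Col4a6, Col7a1, Col17a1, Col18a1, Lama1, Lama3, Lamb1, Lamc1, Agrn and Dag1. The 2 on the luminal side under both were Nid1 and Itgb5, and the first of these turned to the basal side without the marker wells. When the plate B ratio of each was taken without the 1 cell that moved it most, 11 of the 13 stayed on the basal side by 2-fold (Agrn and Col4a5 did not) and 1 of the 2 on the luminal side. Of the 33 members with at least 10 CPM in a population, 28 had a ratio below 0 and 5 above it, 25 kept their sign on plate B, 6 changed sign when the 1 cell that moved the ratio most was left out, and 4 changed sign without the marker wells. Of the 20 members called on the basal side, Lama2, Nid2 and Itga1 came within 2-fold when a single cell was left out, and of the 5 on the luminal side Col4a3, Nid1 and Itga11 did. With the TMM factors of edgeR or median-of-ratios factors in place of library totals, ratios moved towards basal cells by up to 0.22 or 0.26 on the log2 scale, less for members of low level, without turning the sign of a member, and Lama5 (0.82 and 0.79) and Itgb5 (0.91 and 0.88) fell within 2-fold. The other 6 members (Lamc3, Col4a3, Col4a4, Itga7, Itga11 and Itgb8) stayed below 9.61 CPM in both populations and were detected in at most 8.33% of the cells of either at 50000 reads.

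**Figure D1:**
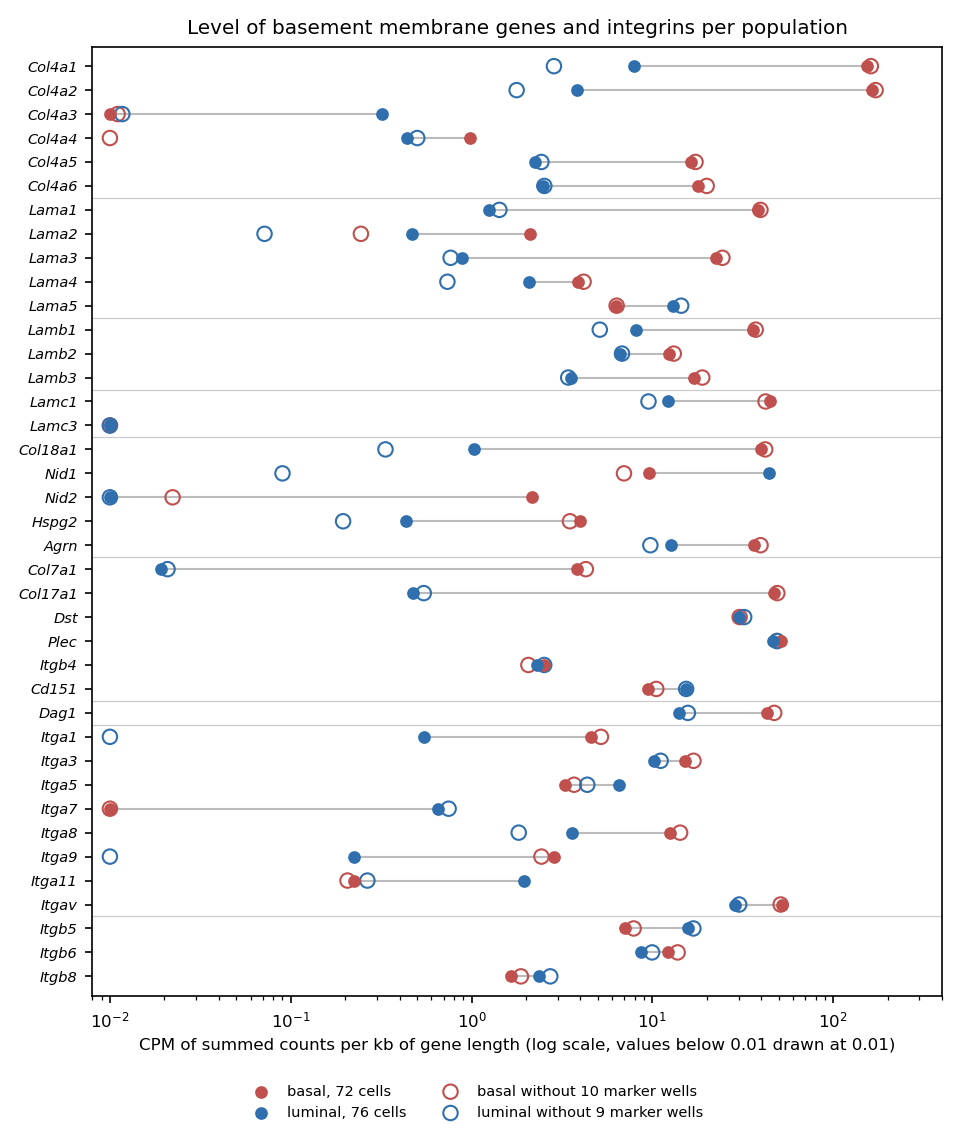
CPM of summed counts per kb of gene length (log axis) of the 39 members in 72 basal cells (red) and 76 luminal cells (blue), grouped by role from collagen IV at the top to integrin beta chains at the bottom; open rings are the same values without the 10 basal and 9 luminal wells with markers of other cell types. Col4a1 and Col4a2 have the highest basal values, Plec, Dst and Itgav lie close in both populations, and the blue ring of Nid1 lies far below its point.

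Per kb of gene length, which allows levels of different genes to be set side by side, the most abundant members in basal cells were Col4a2 (163 CPM per kb) and Col4a1 (155), followed by Itgav (52.0), Plec (51.8), Col17a1 (47.1) and Lamc1 (44.6). In luminal cells the order began with Plec (46.2), Nid1 (44.0), Dst (30.1), Itgav (28.8), Itgb5 (15.8) and Cd151 (15.3), and Col4a1 and Col4a2 were at 7.92 and 3.83. The luminal place of Nid1 rested on a few wells, described below with the linkers. Counting intervals (exact Poisson, 95%) of the summed CPM were at most 5.68% of the value to either side in basal and 6.12% in luminal cells for members with at least 1000 reads. The spread between cells and plates was far wider, and since PCR reads without molecular identifiers are not independent molecules, all intervals here cover counting error only.

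Collagen IV was the family with the widest gap in summed level, 2306.5 CPM over its 6 chains in basal and 114 CPM in luminal cells. The chains alpha1 and alpha2, which form the common collagen IV trimer of most basement membranes, were found in nearly all basal cells and in few luminal cells. Col4a1 (chromosome 8, 11198423 to 11312889) was at 1024 CPM over the basal cells (interval 1017 to 1031) and at 52.4 CPM over the luminal cells (51.1 to 53.7), giving a log2 ratio of -4.26. Over basal cells it ran from 0 through a median of 748 to 4754 CPM, and over luminal cells from 0 through a median of 0 to 1606 CPM. At 50000 reads per cell, 69 of 72 basal cells had a read of it (95.8%, exact binomial interval 88.3 to 99.1%) and 12 of 76 luminal cells (15.8%, 8.43 to 26.0%), so the populations overlapped only in a minority of luminal cells. Col4a2 (chromosome 8, 11312805 to 11449287) had 1049.8 CPM over the basal and 24.6 CPM over the luminal cells, a log2 ratio of -5.36 (-10.24 on plate B, where 24 luminal cells together had 0.14 CPM). It was detected in 67 of 72 basal cells (93.1%) and 6 of 76 luminal cells (7.89%). Of the luminal reads, 68.6% for Col4a1 and 59.7% for Col4a2 came from the 9 marker wells, and a further 39.0% of those for Col4a2 from luminal cell 63. Luminal cell 27, with 15 endothelial and 6 fibroblast markers, had the most (1606 and 971 CPM). Wells with mainly fibroblast markers differed among themselves. Luminal cells 24, 33 and 39, with 15, 17 and 13 fibroblast markers and at most 3 endothelial ones, had 0.55 CPM of Col4a1 or less and no Col4a2. Luminal cell 54, with 18 fibroblast markers and no endothelial one, had 650.8 CPM of Col4a1 and no Col4a2. Luminal cell 61, with 11 fibroblast markers and 1 endothelial one, had 146 and 118 CPM. The part of other cell types in these values was not tested. Without the 19 marker wells, luminal cell 63 and basal cell 90, luminal cells were at 6.53 CPM of Col4a1 and 0.37 CPM of Col4a2, and basal cells at 1090 and 1126 CPM.

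Col4a1 and Col4a2 lie head to head on chromosome 8 and are known to share a bidirectional promoter, and Col4a5 and Col4a6 are arranged the same way on the X chromosome. The 4 windows (250 bases before to 50 bases after the start that RefSeq gives, build GRCm38.p6, each on its own gene's strand, 5′ to 3′) are shown because both genes of each pair were higher in basal cells, and the capitals mark the bases that both windows of a pair cover, read on opposite strands. Col4a1 is at chr8:11312777-11313076 on the minus strand, Col4a2 at chr8:11312555-11312854 on the plus strand, Col4a5 at chrX:141475169-141475468 on the plus strand and Col4a6 at chrX:141474027-141474326 on the minus strand.
Col4a1: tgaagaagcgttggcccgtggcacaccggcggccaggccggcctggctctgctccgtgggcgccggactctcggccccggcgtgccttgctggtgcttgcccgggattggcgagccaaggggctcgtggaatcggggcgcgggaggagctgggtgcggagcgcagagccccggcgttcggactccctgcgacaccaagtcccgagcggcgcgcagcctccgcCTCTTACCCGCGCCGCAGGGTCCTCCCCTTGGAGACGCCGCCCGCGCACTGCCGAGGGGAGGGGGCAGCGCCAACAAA
Col4a2: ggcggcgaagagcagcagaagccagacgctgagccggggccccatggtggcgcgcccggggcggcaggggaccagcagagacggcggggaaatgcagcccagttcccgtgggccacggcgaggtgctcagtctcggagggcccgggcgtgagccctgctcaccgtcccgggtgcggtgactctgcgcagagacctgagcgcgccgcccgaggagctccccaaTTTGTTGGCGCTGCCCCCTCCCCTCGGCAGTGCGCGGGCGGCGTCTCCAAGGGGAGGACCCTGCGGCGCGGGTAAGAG
Col4a5: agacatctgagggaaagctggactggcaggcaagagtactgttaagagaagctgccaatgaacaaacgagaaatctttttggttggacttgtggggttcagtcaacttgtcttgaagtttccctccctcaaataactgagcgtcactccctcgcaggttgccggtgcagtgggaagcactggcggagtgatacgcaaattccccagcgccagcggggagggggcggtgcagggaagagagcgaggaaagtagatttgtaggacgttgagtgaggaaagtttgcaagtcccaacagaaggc
Col4a6: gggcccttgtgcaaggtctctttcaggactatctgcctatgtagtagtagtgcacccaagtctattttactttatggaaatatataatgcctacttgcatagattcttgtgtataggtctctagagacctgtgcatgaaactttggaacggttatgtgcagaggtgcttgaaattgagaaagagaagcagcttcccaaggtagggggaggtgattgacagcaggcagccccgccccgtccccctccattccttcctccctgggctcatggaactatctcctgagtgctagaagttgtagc
The starts used for the windows of Col4a1 and Col4a2 (11312826 and 11312805) lie 21 bases apart, and these windows share 78 bases. That of Col4a1 lies inside the gene bounds given above, which end at 11312889. The starts used for Col4a5 and Col4a6 lie 1343 bases apart, and their windows share none. Both strands were searched for the CCAAT box, for the GC box GGGCGG, for TATAAA as a TATA box and for TGANTCA as the AP-1 motif, and no matches overlapped. GGGCGG was found in all 4 windows, 3 times in that of Col4a2, and occurs in 35.7% of the 32851 windows of the same length. CCAAT was found in those of Col4a1, Col4a2 and Col4a5 (37.4% of all windows), and TATAAA (13.6%) and TGANTCA (7.81%) in none of the 4. The GC content was 74.0% for Col4a1, 73.7% for Col4a2, 52.7% for Col4a5 and 48.3% for Col4a6.

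Within basal cells both chains of the Col4a1 and Col4a2 pair were detected in 66 of 72 cells, Col4a1 alone in 3, Col4a2 alone in 1 and neither in 2. In luminal cells both were found in 6, Col4a1 alone in 6 and Col4a2 alone in 0 of 76. Over the 72 basal cells the log2(CPM + 1) of the pair had a Pearson correlation of 0.65 and a Spearman correlation of 0.36, a description of values that share each cell's library. The genes overlap at their 5′ ends by 22 exonic bases in the GENCODE annotation, and whether the authors' counting used strand is not given in the sources used here, so a few reads may be shared.

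The chains alpha5 and alpha6, which form a trimer known from basement membranes around smooth muscle, followed at a lower level. Col4a5 had 106 CPM over the basal and 14.5 CPM over the luminal cells (log2 ratio -2.78, -1.50 on plate B), and Col4a6 had 119 and 16.5 CPM (-2.79, -3.46 on plate B). Without basal cell 70, which held 63.8% of the basal plate B reads of Col4a5, its plate B ratio was -0.17. Basal cells had 140 CPM of Col4a5 on plate A and 37.3 CPM on plate B, and 118 and 121.5 CPM of Col4a6. Over basal cells the pair had a Pearson correlation of 0.30, with both detected in 25 cells and a single one in 12 and 15. They were detected in 51.4% and 55.6% of basal cells and each in 17.1% of luminal cells, and 25 of 72 basal cells had all of Col4a1, Col4a2, Col4a5 and Col4a6 against 1 of 76 luminal cells. No collagen IV chain of these 4 was detected in 48 luminal cells and 2 basal cells. Col4a3 and Col4a4, the chains typical of the kidney filter, were near absent. Col4a3 had 0.083 CPM over the basal and 2.75 CPM over the luminal cells, of which 91.4% of the luminal reads came from luminal cell 33, a marker well with 17 of 20 fibroblast markers, and Col4a4 had 7.67 and 3.43 CPM, with 99.2% of its basal reads in marker wells.

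The second group are the laminins, whose alpha chain sets which receptors they bind. The populations differed in the alpha chain they expressed: per kb of gene length Lama1 (38.2 CPM per kb) and Lama3 (22.4) led in basal cells, with Lama5 at 6.28, and Lama5 (13.0) led in luminal cells, with no other alpha chain above 2.07. Lama1 (chromosome 17, 67697127 to 67822645), the alpha chain of laminin-111, had 364 CPM over the basal and 11.9 CPM over the luminal cells, a log2 ratio of -4.82 (-8.48 on plate B). It ran from 0 through a median of 21.1 to 6816 CPM over basal cells and from 0 through 0 to 667 CPM over luminal cells, and a single basal cell, number 92 on plate B, held 42.8% of the basal reads and luminal cell 63 held 60.4% of the luminal ones. Without luminal cell 63 the ratio was -5.99. Lama3, an alpha chain of epithelial laminins, had 232 CPM over the basal and 9.13 CPM over the luminal cells (log2 ratio -4.52, -4.24 on plate B), with a median over basal cells of 94.7 CPM and 65.4% of its luminal reads in luminal cell 63, without which the ratio was -5.80. It was more even than Lama1 among basal cells, its top cell holding 10.6% of the reads, but was at 317 CPM on plate A and 61.6 CPM on plate B. Lama1 was at 222 CPM on plate A and at 648 CPM on plate B, or 193 CPM there without basal cell 92. Lama3 was detected in 70.8% and Lama1 in 54.2% of basal cells. The lead of Lama1 in summed level was thus not seen in its median, its plate A level or its share of cells.

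Lama5 (chromosome 2, 180176373 to 180225904), the alpha chain of laminin-511 and laminin-521, went the other way. Its level was 71.5 CPM over the basal (interval 69.7 to 73.3) and 148 CPM over the luminal cells (146 to 150.5), giving a log2 ratio of 1.04, and its median over cells was 0.60 CPM over the basal and 71.0 CPM over the luminal cells. Basal cell 92, which also held the most Lama1, gave 57.4% of the basal reads, and without it basal cells were at 31.2 CPM and the ratio was 2.21. On plate B, where that cell lay, the ratio was 0.37, within 2-fold. A read of Lama5 was found in 21 of 72 basal cells (29.2%, 19.0 to 41.1%) and 56 of 76 luminal cells (73.7%, 62.3 to 83.1%) at 50000 reads.

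Taken cell by cell, 50 of 76 luminal cells had Lama5 as their single detected chain of Lama1, Lama3 and Lama5, and 19 had none of them. Of 72 basal cells, 29 had both Lama1 and Lama3 (12 of them with Lama5), 15 had Lama3 alone, 9 had Lama1 alone, 1 had Lama5 alone and 10 had none. Lama2 and Lama4, known from muscle, nerve and blood vessel laminins, were rare in both populations. Lama2 had 20.5 CPM over the basal and 4.57 CPM over the luminal cells, but basal cell 56, with 16 of 20 fibroblast markers, held 85.2% of the basal reads and the log2 ratio of -1.95 became 0.44 without it and 0.94 on plate B. There luminal cell 24, a marker well, held 83.1% of the luminal reads, and the plate B ratio was -0.31 without it. Over all plates, marker wells held 86.8% of the luminal Lama2 reads, and the ratio without the marker wells was -0.99. Lama4 had 23.6 and 12.5 CPM (log2 ratio -0.86), with 64.4% of the basal reads in basal cell 15. Its ratio was 3.17 on plate B, where basal cells had 0.18 CPM and luminal cells 9.61 CPM, and -2.27 without the marker wells.

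**Figure D2:**
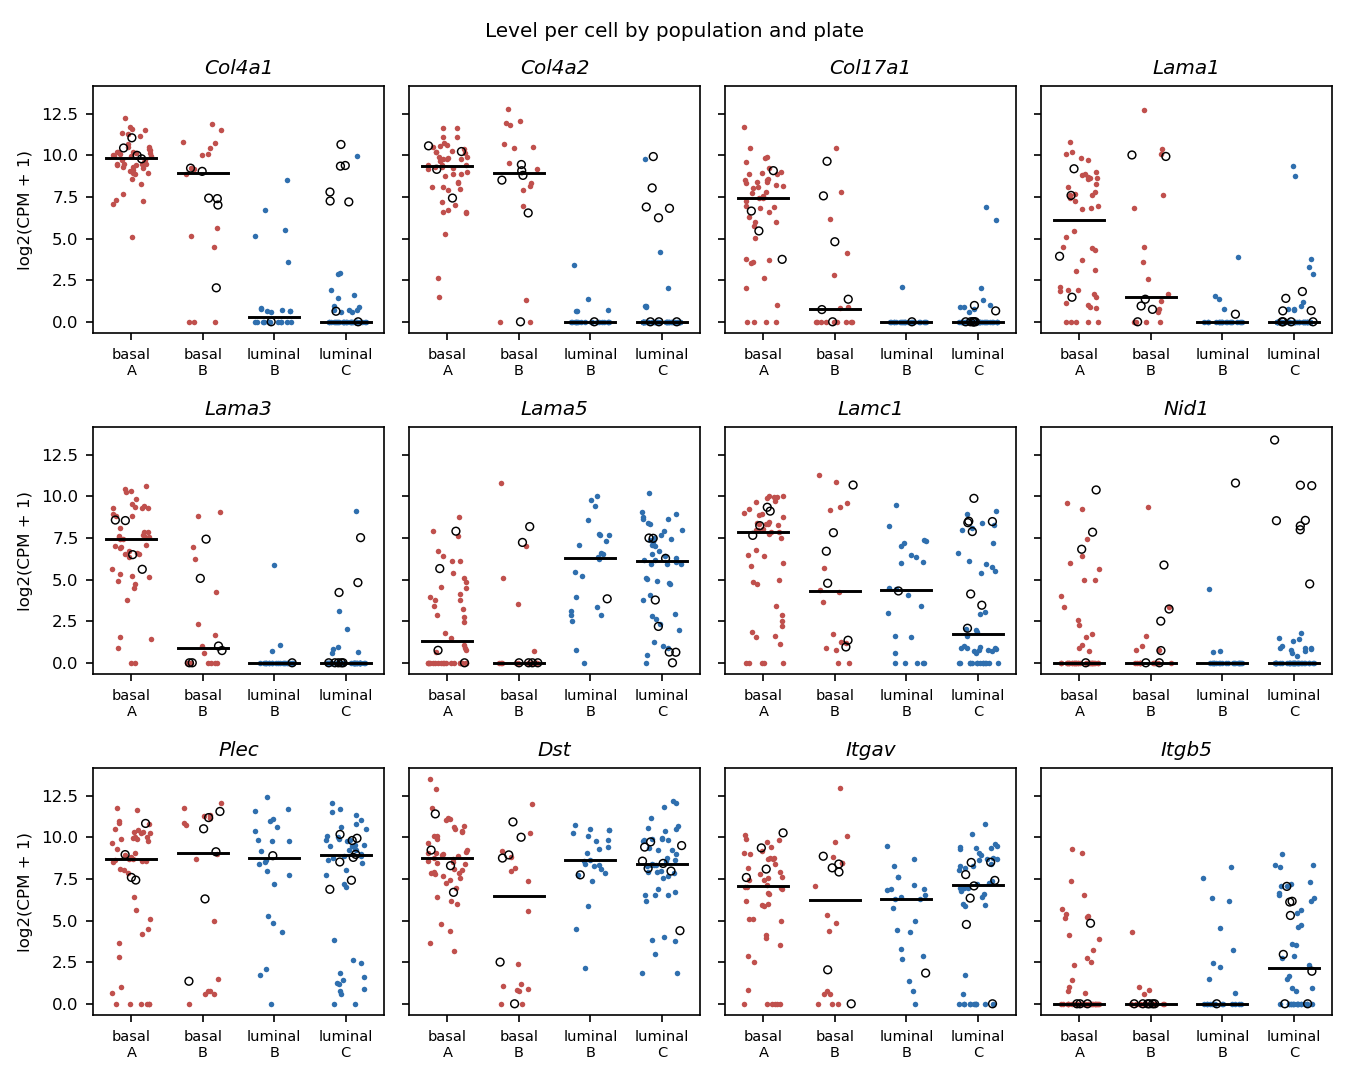
log2(CPM + 1) per cell of 12 members in basal cells of plates A (50 cells) and B (22) and luminal cells of plates B (24) and C (52); black lines are medians, and black rings are the 19 wells with at least 4 markers of another cell type. Col4a1 and Col4a2 are high in most basal cells, Lama5 is higher in luminal cells, and the luminal cells with high Nid1 are rings.

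Among the beta and gamma chains, Lamb1 and Lamc1, the shared partners of most alpha chains, were higher in basal cells over all plates and on plate B. Lamc1 (chromosome 1, 153218922 to 153332786) had 340 CPM in basal cells (from 0 through a median of 146 to 2457 over cells) and 93.5 CPM in luminal cells (from 0 through 4.91 to 939), a log2 ratio of -1.85 (-2.21 on plate B). Its distributions overlapped, with a read in 70.8% of basal and 40.8% of luminal cells. Lamb1 had 209 and 46.7 CPM (log2 ratio -2.14, -2.18 on plate B), and 44.9% of its luminal reads came from the marker wells (ratio -2.82 without them). Lamb2, the beta chain of laminin-521, had 69.2 and 37.2 CPM (log2 ratio -0.88), with 58.3% of its basal reads in basal cell 90 and 53.9% of its luminal reads in luminal cell 15. Without the former the ratio was 0.33, so its direction rested on a cell without basal markers.

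Lamb3, a beta chain of epithelial laminins, had 68.9 CPM over the basal and 14.4 CPM over the luminal cells, a log2 ratio of -2.18 that turned to 1.14 on plate B. The basal level differed between plates, 100 CPM on A and 6.50 CPM on B, while luminal cells were at 15.6 CPM on B and 13.9 CPM on C. Lama3 and Lamb3 were thus both lower in the basal cells of plate B than in those of plate A, beside the lower number of genes detected there. Lamc3 had 1 read in all basal and 5 in all luminal cells and was detected in 0 of 72 and 0 of 76 cells at 50000 reads, which allows shares of up to 4.17% and 3.95% of cells with a read at that depth. With all reads it was found in 1 basal and 4 luminal cells.

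The linkers and proteoglycans were on the basal side, with Nid1 as the exception that rested on marker wells. Col18a1, whose chain carries heparan sulfate and releases endostatin, had 231 CPM over the basal and 5.96 CPM over the luminal cells, a log2 ratio of -5.06 (-4.36 on plate B), with 71.8% of the luminal reads in marker wells (ratio -6.38 without them). Agrn, which binds laminin and dystroglycan, had 269.5 and 93.4 CPM (-1.52, -1.85 on plate B) and was found in 80.6% of basal and 51.3% of luminal cells. Basal cell 84, on plate B, held 30.9% of its basal reads, and leaving it out gave a ratio of -1.01 for all plates together and of 0.02 for plate B, where basal cells then had 91.7 CPM and luminal cells 93.0 CPM. Hspg2, which encodes perlecan, had 56.1 and 6.14 CPM (-3.75 without the marker wells), but the basal level was 83.1 CPM on plate A and 2.04 CPM on plate B, where the ratio was -0.62.

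Nid1 (chromosome 13, 13437602 to 13512275), the nidogen that bridges laminin gamma1 and collagen IV, was at 58.0 CPM over the basal and 266 CPM over the luminal cells, giving a log2 ratio of 2.18 (1.97 on plate B). The luminal median over cells was 0 CPM and the highest cell was at 10656.8 CPM. This was luminal cell 54, with 62.5% of the luminal reads and without which the ratio was 0.79, and the 9 luminal marker wells together held 99.8%. The next highest were luminal cells 24 (1777 CPM), 33 (1624 CPM) and 55 (1592 CPM), with 15, 17 and 15 fibroblast markers, and the last of these also had 17 endothelial markers. Luminal cells 27 and 25, with 15 and 16 endothelial and 6 and 1 fibroblast markers, had 375 and 254 CPM. Luminal cells 61 and 39, with 11 and 13 fibroblast markers and 1 endothelial one each, had 370 and 297 CPM. Without the marker wells luminal cells were at 0.54 CPM and basal cells at 42.1 CPM, a log2 ratio of -4.80. Basal marker wells held 36.4% of the basal reads. Nid2 was at 10.5 and 0.035 CPM, and basal cell 13, a marker well, held 99.0% of the basal reads, leaving 0.11 CPM without it. Its exons overlap those of Rtraf over 8.96% of their length, so a low count may hold reads of that gene.

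**Figure D3:**
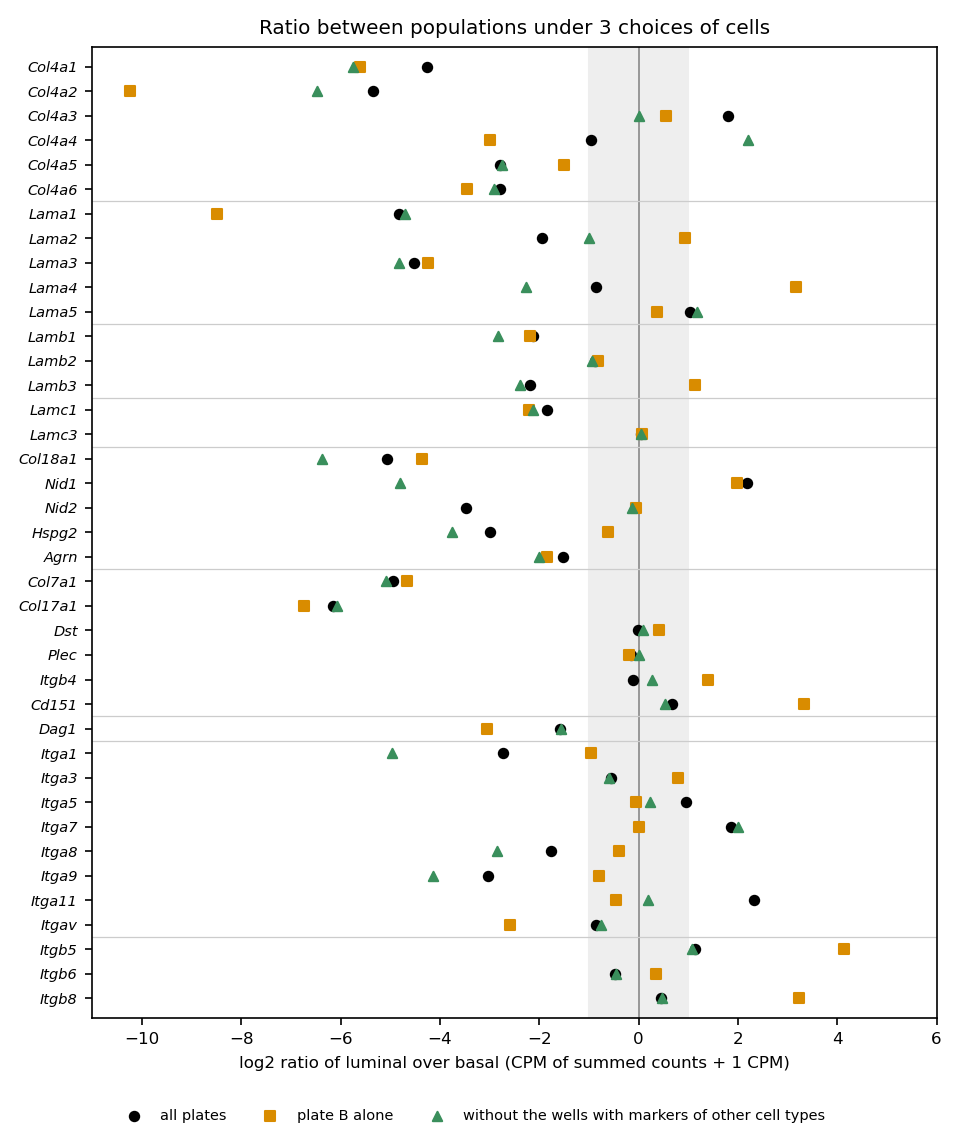
log2 ratio of luminal over basal (CPM of summed counts with 1 CPM added) of the 39 members over all plates (circles), on plate B alone (squares) and without the 19 marker wells (triangles); the grey band is the range within 2-fold. Collagen IV chains 1, 2, 5 and 6 keep to the left under all 3 choices, while the triangle of Nid1 lies at -4.80 and its circle at 2.18.

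The anchoring genes fell into a part that was rare in luminal cells and a part within 2-fold over all plates. Col17a1 (chromosome 19, 47646341 to 47692042), the transmembrane collagen of hemidesmosomes, had 256 CPM over the basal and 2.59 CPM over the luminal cells, the lowest log2 ratio of the members over all plates at -6.16 (-6.75 on plate B). It ran from 0 through a median of 85.6 to 3348 CPM over basal cells and from 0 through 0 to 120 CPM over luminal cells, and luminal cell 37 alone held 62.4% of the luminal reads (ratio -7.01 without it). It was detected in 45 of 72 basal cells (62.5%) and 2 of 76 luminal cells (2.63%). Col7a1, the chain of anchoring fibrils, had 35.3 and 0.18 CPM (log2 ratio -4.95, -4.66 on plate B), with 20 reads in all luminal cells together. Plec and Dst, the plakins that tie hemidesmosomes to keratin filaments, did not follow: Plec had 907 and 810 CPM (log2 ratio -0.16) and Dst 705 and 699 CPM (-0.01). Their medians over cells were 432 and 474 CPM for Plec and 358 and 361 CPM for Dst, and the populations overlapped over nearly the whole range. Both genes also have forms outside hemidesmosomes, which gene counts do not separate.

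Itgb4, the integrin chain of hemidesmosomes, had 15.4 and 14.2 CPM (log2 ratio -0.11, 1.39 on plate B, 0.31 without basal cell 51) and was found in 25.0% of basal and 18.4% of luminal cells. Cd151, the tetraspanin that associates with laminin-binding integrins, had 19.0 and 30.7 CPM (0.67, 3.32 on plate B, 0.18 without luminal cell 53), and its basal level was 27.7 CPM on plate A and 1.46 CPM on plate B. Exons of other genes cover 8.41% of those of Itgb4 and 9.90% of those of Cd151 in GENCODE. A read of all of Itgb4, Col17a1, Plec, Dst and Cd151 was found in 5 of 72 basal cells and 0 of 76 luminal cells. Dag1, which encodes both subunits of dystroglycan, the laminin and agrin receptor outside the integrins, had 189 CPM over the basal and 62.0 CPM over the luminal cells, a log2 ratio of -1.59 (-3.06 on plate B), with reads in 58.3% and 39.5% of cells. Luminal cell 45 held 39.5% of its luminal reads, and the ratio without that cell was -2.28.

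The integrin chains of the list lay on both sides. Of the 7 alpha chains that passed the filter, 3 were higher in basal cells by at least 2-fold, 1 in luminal cells and 3 in neither, with log2 ratios from -3.04 to 2.33 and a median of -0.85. No integrin alpha chain was 2-fold higher in basal cells both over all plates and on plate B. Itgav, the partner of several beta chains in receptors for RGD ligands, was the most abundant, with 367 CPM over the basal and 203 CPM over the luminal cells (-0.85), and was found in 72.2% and 71.1% of cells. Basal cell 84 held 30.8% of the basal reads, and without it the ratio over all plates was -0.34. On plate B, its own plate, the Itgav ratio was -2.58, and -1.27 without that cell. Itga3, whose pair with beta1 binds laminin-511, had 73.7 and 49.7 CPM (-0.56, 0.79 on plate B, -0.98 without luminal cell 15).

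Itga8, a chain of contractile cells, had 72.4 and 20.7 CPM (log2 ratio -1.76, -0.39 on plate B), and luminal cell 24, a marker well, held 53.3% of its luminal reads (ratio -2.75 without it), while basal cells were at 75.1 CPM on plate A and 66.9 CPM on plate B. Basal cell 86 held 85.7% of the basal reads on plate B, and without it that level was 10.1 CPM and the plate B ratio 2.22. Itga9 had 20.2 and 1.58 CPM (-3.04), with 98.3% of the luminal reads in marker wells (86.7% in luminal cell 55 alone, without which the ratio was -4.13), and a basal level of 29.9 CPM on plate A and 0.79 CPM on plate B. Itga1, a collagen receptor chain, had 27.4 and 3.25 CPM (-2.74), with 76.9% of the basal reads in basal cell 37 (ratio -0.80 without it) and 99.5% of the luminal reads in marker wells. In basal cells Itga1 was at 40.7 CPM on plate A and 1.00 CPM on plate B, so for it and Itga9 the basal level was that of plate A. Itga5, the fibronectin receptor chain, had 14.3 and 28.6 CPM (0.95), with 35.5% of the luminal reads in luminal cell 54, and 16.1 and 19.1 CPM without the marker wells. Itga7 had 0 reads in basal cells, which allows up to 0.0357 CPM, and 300 reads (2.63 CPM) in luminal cells, 92.7% of them in luminal cell 34. Itga11, with 1.11 and 9.60 CPM, had 81.5% of its luminal reads in luminal cell 39, a marker well.

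Of the beta chains, Itgb5 (chromosome 16, 33829665 to 33949338), whose pair with alphav binds vitronectin, was the 1 of 3 that was at least 2-fold higher in luminal cells. Its level was 23.1 CPM over the basal (interval 22.1 to 24.2) and 51.8 CPM over the luminal cells (50.5 to 53.1), giving a log2 ratio of 1.13. Over cells it ran from 0 through 0 to 618 CPM in basal and from 0 through 1.35 to 502 CPM in luminal cells, with a read in 14 of 72 (19.4%) and 26 of 76 cells (34.2%), so the ranges overlapped almost fully. Basal cell 27 held 38.2% of the basal reads, and without it the ratio was 1.77. The ratio was 4.13 on plate B, where basal cells had 1.07 CPM, and 1.07 without the marker wells. Itgb6, whose pair with alphav activates latent TGF-beta, had 62.3 and 44.4 CPM (-0.48, 0.36 on plate B), and 0.13 without basal cell 1. Itgb8 had 5.10 and 7.35 CPM. At 50000 reads, 44 of 72 basal and 36 of 76 luminal cells had none of Itgb5, Itgb6 and Itgb8. This depends on depth, since with all reads of each cell Itgb6 was found in 93.1% of basal and 73.7% of luminal cells.

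The partner chains have to be read with the sort in mind. CD29, the protein of Itgb1, defined the gates, so its level (766 CPM over the basal and 244 CPM over the luminal cells) is no finding between the populations, and the same holds in part for each pair with beta1 below. Itga6, the laminin receptor chain of both beta1 and beta4 pairs, had 182 CPM per kb of gene length in basal and 50.2 in luminal cells (log2 ratio of CPM -1.85, -0.90 on plate B).

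**Figure D4:**
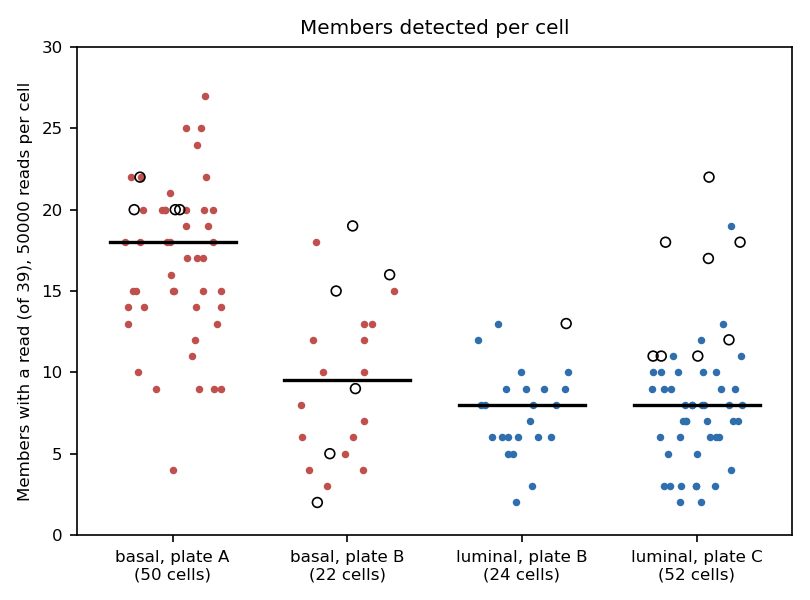
Number of the 39 members with a read in each cell at 50000 reads per cell, by population and plate; black lines are medians and black rings are wells with at least 4 markers of another cell type. Basal cells of plate A have a median of 18, basal cells of plate B 9.5, and luminal cells of plates B and C 8 each.

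The second question was which complexes a single cell could assemble, given that trimers and integrin pairs form inside the cell that makes the chains. At 50000 reads per cell, basal cells had a read of a median of 15 of the 39 members (range 2 to 27) and luminal cells of 8 (range 2 to 22). Plate A basal cells had a median of 18 and plate B basal cells one of 9.5. Basal cells of plate B were thus close to the luminal cells of the same plate, which had a median of 8. Over 10 draws of the thinning the medians stayed between 15 and 16 in basal cells and at 8 in luminal cells.

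Of 29 complexes, 4 had all chains detected in at least 50% of basal cells and 2 in that share of luminal cells. In basal cells these were collagen IV alpha1alpha1alpha2 (66 of 72 cells, 91.7%, exact binomial interval 82.7 to 96.9%), integrin alpha6beta1 (63, 87.5%), alphavbeta1 (49, 68.1%) and laminin-311 (38, 52.8%, 40.7 to 64.7%). Laminin-311 reached 50% in 2 of 10 draws of the thinning (range 41.7 to 52.8%), and the first 3 in all 10. In luminal cells they were alphavbeta1 (46 of 76, 60.5%) and alpha6beta1 (43, 56.6%). On plate B alone, alpha6beta1 was in 59.1% of basal and 54.2% of luminal cells, and alphavbeta1 in 50.0% and 58.3%. Collagen IV alpha1alpha1alpha2 had both chains in 6 of 76 luminal cells (7.89%, 2.95 to 16.4%), and in 1 of 67 (1.49%) without the marker wells.

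Among laminins, all chains of laminin-311 (alpha3, beta1, gamma1) were found in 1 luminal cell, and those of laminin-111 (alpha1, beta1, gamma1) in 27 basal cells (37.5%, 26.4 to 49.7%) and 1 luminal cell. Over the 10 draws laminin-111 ranged from 26.4 to 37.5% of basal cells, and laminin-511 from 9.72 to 20.8% of basal and from 5.26 to 10.5% of luminal cells. These shares differed between the plates of basal cells. Laminin-311 was complete in 35 of 50 cells on plate A and in 3 of 22 on plate B, and laminin-111 in 22 of 50 and 5 of 22. Laminin-511 was complete in 14 of 50 and 1 of 22, and in 0 of 24 luminal cells of plate B. Although Lama5 was found in most luminal cells, laminin-511 was complete in 4 of the luminal (5.26%, 1.45 to 12.9%) and 15 of the basal cells (20.8%, 12.2 to 32.0%), and laminin-521 in 7 luminal (9.21%, 3.78 to 18.1%) and 2 basal cells (2.78%, 0.34 to 9.68%). The chain detected least was a beta chain in luminal cells for both. Lama5 was found with Lamc1 in 26 luminal cells and without it in 30. With all reads of each cell, laminin-511 was complete in 30.3% and laminin-521 in 40.8% of luminal cells.

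The collagen IV trimer alpha5alpha5alpha6 had both chains in 25 basal cells (34.7%) and 3 luminal cells (3.95%). The trimer alpha3alpha4alpha5 was complete in 0 cells of either population, which allows up to 4.17% of basal and 3.95% of luminal cells. With all reads of each cell it was complete in 1.39% and 1.32%. Of the integrin pairs, alpha3beta1 was found in 38.9% of basal and 23.7% of luminal cells, and alpha6beta4 in 25.0% and 13.2%. Alpha8beta1 was found in 25.0% and 7.89%, and alpha9beta1 in 19.4% and 2.63%. On plate B alone, alpha3beta1 was in 13.6% of basal and 20.8% of luminal cells, and alpha6beta4 in 13.6% and 12.5%. There alpha8beta1 was in 9.09% and 8.33%, and alpha9beta1 in 9.09% and 0%, which allows up to 12.5%. Over all plates, pairs of alphav with its other partners were close in the populations. Alphavbeta5 was in 18.1% of basal and 27.6% of luminal cells (intervals 9.98 to 28.9% and 18.0 to 39.1%) and alphavbeta6 in 19.4% and 17.1%. The share of cells with a whole complex was within 10 percentage points of the product of the shares of its single chains in 56 of 58 cases (29 complexes in each population). Where a chain was found in fewer than 10% of cells, the share could not exceed the product by that much. The count of 56 therefore does not tell whether chains occur independently. Collagen IV alpha1alpha1alpha2 in luminal cells, at 7.89% against a product of 1.25%, is among the 56. In the other 2, both in basal cells, the share was above the product. Laminin-311 was found in 52.8% against a product of 34.1%, and laminin-111 in 37.5% against 26.1%. Both shares were the highest of the 10 draws of the thinning, which ranged from 41.7 to 52.8% and from 26.4 to 37.5%. The products were taken in the main draw only, so whether the excess holds in the other draws was not tested. The shares of 52.8% and 37.5% also pool plates that differ in detection. Within plate A they were 70.0% against 54.9% and 44.0% against 37.4%, and within plate B 13.6% against 7.10% and 22.7% against 9.13%.

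**Figure D5:**
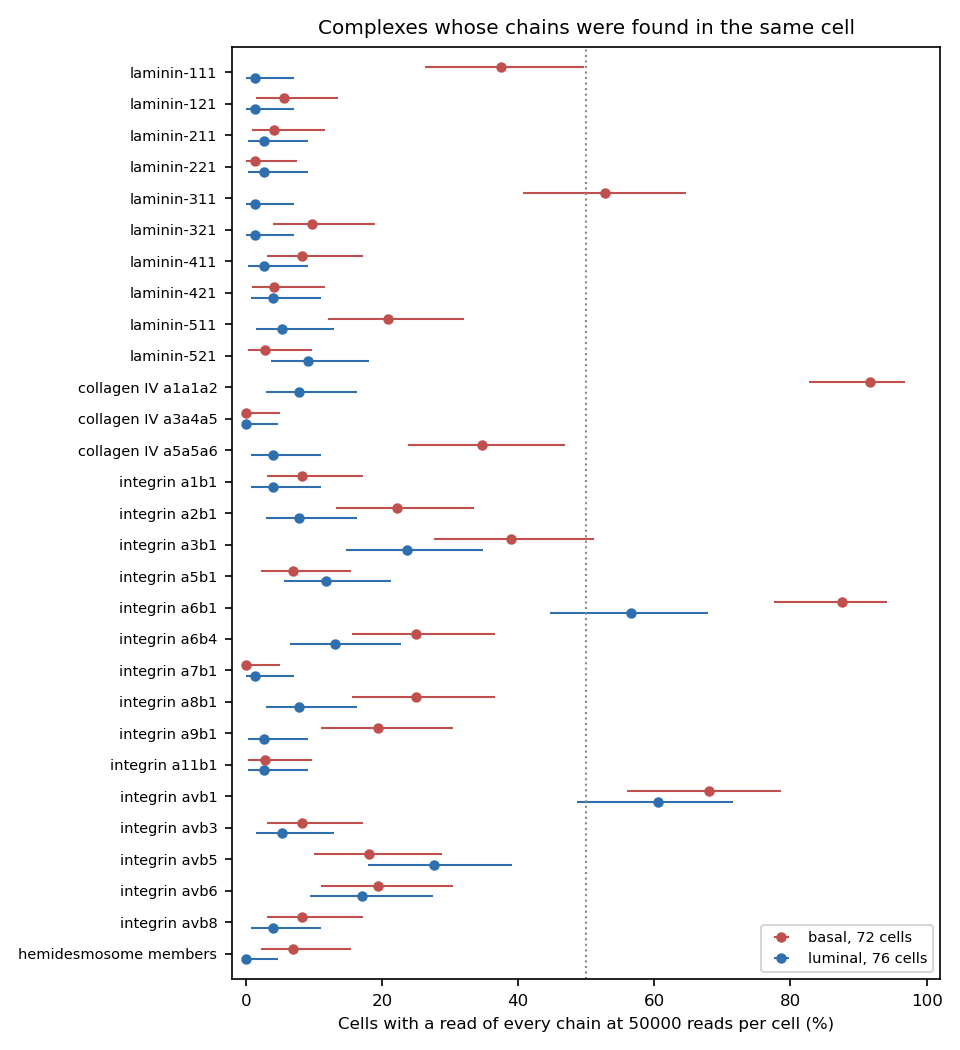
Share of cells with a read of every chain of a complex at 50000 reads per cell, in 72 basal (red) and 76 luminal cells (blue); bars are exact 95% binomial intervals that cover counting error only, and the dotted line is at 50%. Collagen IV a1a1a2 is the complex with the widest gap, 91.7% against 7.89%, while the integrin pairs avb1, avb5 and avb6 have overlapping intervals.

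Other genes of the same biology were taken as whole lists, and these lists were chosen with earlier results of these data known. The counts below stand beside 18.3% of all genes on the basal and 28.4% on the luminal side by 2-fold, and 10.2% and 21.5% with plate B as well. Of 13 other basement membrane genes, 5 were at least 2-fold higher in basal and 3 in luminal cells (4 and 2 with plate B as well), with a median log2 ratio of 0.04. Fbln2, a fibulin that binds nidogen and laminin, had 455 and 36.4 CPM (-3.61), and Frem2, of the Fraser complex, 51.7 and 0.053 CPM (-5.64). On the luminal side, Egflam, which encodes the dystroglycan ligand pikachurin, had 4.80 and 35.4 CPM (2.65) and Npnt, the alpha8beta1 ligand nephronectin, 1.96 and 10.7 CPM (1.99, -0.51 on plate B).

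Of the 12 collagen processing genes that passed the filter, 4 were higher in basal and 2 in luminal cells by at least 2-fold (2 and 1 with plate B as well), with a median of 0.00. Plod2, a lysyl hydroxylase, had 20.9 and 4.05 CPM (-2.12) and Pxdn, the peroxidasin that forms the sulfilimine bonds of collagen IV, 49.9 and 11.2 CPM (-2.06, -0.77 on plate B). P4ha2, a prolyl hydroxylase subunit, had 7.05 and 58.2 CPM (2.88, 0.28 on plate B), and Plod1 3.02 and 15.1 CPM (2.00).

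Of 20 integrin adaptor genes, 11 were on the basal side by at least 2-fold and 1 on the luminal side (6 and 0 with plate B as well), with a median of -1.07. Fermt1, which encodes kindlin-1, had 170 and 20.0 CPM (-3.03, -2.66 on plate B), and Lims2, which encodes PINCH2, 28.3 and 2.72 CPM (-2.98, -5.88 on plate B). On the luminal side, Tns2 had 19.3 and 50.2 CPM (1.34), but -0.87 without the marker wells, and Tln2 had 26.2 and 40.3 CPM (0.60).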

How the data were processed

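RNA of single cells was measured on the Fluidigm C1 with Nextera XT libraries. The authors aligned read pairs to mm10 with Subread, assigned them to genes with featureCounts and the RefSeq annotation built into it (per the submitters' processing notes and the methods), and deposited raw counts per gene and cell. How strand and multi-mapping reads were treated is not given in the sources used here. A table of the whole series held the same counts and was not used, and 0 columns of other samples were left over. Of 27179 gene identifiers, 25275 matched a RefSeq symbol (GRCm38.p6, the assembly of mm10), and the 1904 others held 1.94% of the counts.

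Genes of mitochondria (15) and of ribosomal proteins (124) were dropped, the study's cell thresholds and its gene filter (1 CPM in 3 cells) were applied, and counts were summed per population. CPM was computed from the deposited counts, and CPM per kb used the gene length in the files. For values per cell, cells were thinned to 50000 reads without replacement (seed 2017), and a chain counted as detected from 1 read. Intervals are exact Poisson and exact Clopper-Pearson, at 95%. Beside a share of 0 of a gene or complex over a whole population stands the limit set by 3 counts. With 1 sample per population no test was made, although the study used cells as replicates. No doublet caller was run on 186 cells, since capture sites had been inspected by microscope. No library looked deposited more than once, as the chi-square per gene between any pair was at least 20.0 for basal and 40.8 for luminal cells (sampling noise gives values near 1). The calculation of the log2 ratios was checked on simulated counts with known changes. Those counts held no spread between cells beyond depth and counting error, so the check does not cover the spread seen here. Members and lists were chosen with earlier results of these data known. All members are accounted for, those with at least 10 CPM in a population with their values. Of each other list, the text names the 2 genes on either side whose ratios were furthest from 0, from those at 10 CPM or more in a population. Promoter windows of RefSeq (GRCm38.p6) existed for 29 of 39 members, and exon overlaps were taken from GENCODE. A further partner chain, and a complex that needs it, are not reported here. Alternatives covered scaling, the added CPM, weights, filters, plates, wells, single cells, depth, detection and seeds. The programs were Python 3.11.15, numpy 2.4.6, pandas 2.3.3, scipy 1.17.1, matplotlib 3.10.9, R 4.3.3 and edgeR 4.0.16.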

Additional observations from a re-analysis of the deposited data

Results flagged for a closer look

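The 24 basal and 14 luminal wells below the thresholds on reads and genes were used in no comparison, and 5 abundant members (Col4a1, Col4a2, Lamc1, Plec and Dst) were read in them because a signal there would come from data outside the main measurement. In the basal wells, 265874 reads in all, Col4a1 was at 485 CPM (129 reads, in 15 wells), Col4a2 at 267 CPM (71 reads), Lamc1 at 75.2 CPM, Plec at 233 CPM and Dst at 384 CPM, each above the 11.3 CPM that a count of 0 allows and below its level in the cells that passed. In the luminal wells, 412543 reads in all, Plec was at 60.6 CPM and Dst at 1457 CPM, above the 7.27 CPM that a count of 0 allows, and Dst was above its level of 699 CPM in the luminal cells that passed. Col4a1 and Col4a2 had 0 reads there, and Lamc1 had 3, which is the limit itself.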

How the results depend on the processing

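No paired analysis was possible because a cell number in the labels only counts cells within its population, and no test was made. All ratios are log2 of luminal over basal. The counts of members at least 2-fold higher in basal cells moved by less than 1.5 times under each alternative tried. The luminal count of 5 became 3 with TMM, with median-of-ratios scaling, without the marker wells, and without those wells, luminal cell 63 and basal cell 90 (an exclusion chosen after seeing the data), and 1 with 10 CPM added. The luminal count of 2 with plate B as well became 1 with either scaling, 10 CPM added or the mean of CPM per cell. With plate B ratios each taken without the cell that moves them most (chosen after seeing the data), 1 of the 2 kept its call. Lama5, not among the 2, then passed 2-fold on plate B as well (2.87). The median member ratio of -1.56 became -1.78 with TMM, -1.81 with median-of-ratios, -1.05 with 10 CPM added, -0.72 on plate B with its own gene filter, -1.30 for plate A against plate C, -2.01 without the marker wells and -2.22 without those wells and the 2 cells. Ratios of at least 2-fold turned sign for Lama2 (0.94 on plate B, 0.44 without basal cell 56), Lamb3 (1.14 on plate B), Itga11 (-0.47 on plate B, -0.67 without the wells and the 2 cells) and Nid1 (-4.80 without the wells, -4.83 without the 2 cells as well). The median of members detected per cell (15 basal, 8 luminal) became 17 and 9 at 100000 reads, 23 and 13.5 without thinning, 10 and 5 when 5 reads were required, 9.5 in basal cells of plate B, 18 in those of plate A, and 7.5 in luminal cells without the wells and the 2 cells. Complexes complete in most cells (4 basal, 2 luminal) became 8 and 4 without thinning and 2 and 0 with 5 reads required, and basal cells had 3 on plate B alone and in the lowest of 10 draws. The causes were not tested, apart from those that lie in the construction of an alternative. Of 507 single member ratios under alternatives 207 moved by less than counting error and 293 by more, and 7 of at least 2-fold turned sign. Of 464 complex shares 307 stayed within their interval. Depth limits the complexes, since all chains must have a read in the same cell.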
